A study of Mus musculus with 9 samples.

Results

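Tfeb, Tfe3, Mitf and Tfec encode the MiT/TFE family of transcription factors, Flcn encodes folliculin, Fnip1 and Fnip2 encode its binding partners, and Gpnmb encodes a membrane glycoprotein whose gene these factors activate. The 8 genes were taken by name for these roles, with no threshold on their values, but with earlier results of these data known. They are described here among 20287 genes that were listed in at least 1 library. Each of the 8 was listed in at least 1 library, and 7 of them, all but Tfec, passed the filter on low values (a mean of at least 0.5 FPKM over the 9 libraries) and were tested with 13990 genes in all.

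RNA-seq libraries were made from E14 cells, an embryonic stem cell line from mouse strain 129, that were either Hbxip-/- (KO) or wild type (WT). Cells of each genotype were taken from pluripotent culture, after 96 h (4 days) of LIF withdrawal, and as embryoid bodies, for which the labels give no age. LIF is a cytokine added to such cultures to hold the cells in an undifferentiated state, and embryoid bodies are aggregates in which such cells differentiate. Each of the 3 conditions had 2 KO libraries and 1 WT library, so every group mean for KO is over 2 libraries and every WT value is 1 library. Nothing in the labels tells whether the libraries of a group were separate cultures or whether the KO cells were 1 clone or several. The p-values therefore measure only the spread between these libraries, which may be technical, and each WT library is assumed to vary as the KO pairs do. The depth was even, at 10147277 to 10863845 rounded counts per library. Hbxip (Lamtor5), a subunit of Ragulator, was listed at 31.0 and 29.1 FPKM in KO against 40.7 FPKM in WT pluripotent cells, at 16.2 and 15.5 against 38.5 FPKM after LIF withdrawal, and at 23.0 and 18.3 against 41.8 FPKM in embryoid bodies. The targeted transcript was thus lower in all 6 KO libraries than in any WT library but was still counted, and in pluripotent culture its log2 fold change of -0.31 ± 0.15 (SE) did not pass the test (edgeR adjusted p = 0.0971). Which bases were deleted is not given in the labels.

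Of the 7 embryonic stem cell markers, Pou5f1 lay between 648.0 and 895.4 FPKM in every library. In KO cells 1 of the 7 rose and 6 fell after LIF withdrawal (median log2 fold change -0.36), where 30.2% of all tested genes rose and 29% fell. In KO embryoid bodies 1 rose and 4 fell (median -0.37), where 31% of all genes rose and 30% fell. In WT cells 0 rose and 6 fell after LIF withdrawal (median -1.39), where 11.6% of all genes rose and 8.9% fell. In WT embryoid bodies 0 rose and 6 fell (median -1.17), where 19.7% of all genes rose and 18.9% fell. At an unadjusted p under 0.05 in edgeR, the WT counts were 0 and 7 after LIF withdrawal and 1 and 6 in embryoid bodies. Klf4, a pluripotency factor gene, was listed at 85.6 and 90.5 FPKM in KO against 154.7 FPKM in WT pluripotent cells. After LIF withdrawal it stood at 60.3 and 58.0 FPKM in KO against 21.1 FPKM in WT. Embryoid bodies had 51.7 and 41.6 FPKM in KO against 17.3 FPKM in WT. Not every marker ran this way. Nanog was below WT in each condition, at 232.6 and 264.65 against 389.8 FPKM in pluripotent culture. It stood at 164.2 and 163.8 against 214.5 FPKM after LIF withdrawal and at 181.0 and 143.65 against 213.6 FPKM in embryoid bodies. In each of the 2 differentiated conditions 5 of the 7 markers were called higher and 1 lower in KO than in WT. MiT/TFE proteins bind CLEAR and E-box elements and switch on genes of lysosomes and autophagy. When amino acids are plentiful, Ragulator and the Rag GTPases bring them to the lysosome surface, where mTORC1 phosphorylates them and 14-3-3 proteins then hold them in the cytoplasm. Folliculin, in complex with FNIP1 or FNIP2, acts on RagC and RagD as a GTPase-activating protein and is needed for this phosphorylation. In mouse embryonic stem cells, loss of folliculin or of its partners is known to let TFE3 stay in the nucleus and to hinder the exit from pluripotency. RNA levels say nothing about where these proteins are in the cell or how they are phosphorylated.

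The promoter windows of Fnip1, Fnip2 and Gpnmb are shown because their RNA responded differently to differentiation in KO and WT cells. That of Flcn, whose responses did not pass this test, is shown as a gene of the same complex as Fnip1 and Fnip2. The windows come from RefSeq on GRCm38.p6, which held 13 start sites for the 8 genes, and each runs 300 bases, from 250 bases before the start site to 50 after it. Capitals mark the E-box CACGTG, which is its own reverse complement, and the 10-base palindrome GTCATATGAC. The windows lie at chr11:59809990-59810289 on the minus strand for Flcn, chr11:54437929-54438228 on the plus strand for Fnip1, chr3:79567630-79567929 on the minus strand for Fnip2 and chr6:49036268-49036567 on the plus strand for Gpnmb.
Flcn: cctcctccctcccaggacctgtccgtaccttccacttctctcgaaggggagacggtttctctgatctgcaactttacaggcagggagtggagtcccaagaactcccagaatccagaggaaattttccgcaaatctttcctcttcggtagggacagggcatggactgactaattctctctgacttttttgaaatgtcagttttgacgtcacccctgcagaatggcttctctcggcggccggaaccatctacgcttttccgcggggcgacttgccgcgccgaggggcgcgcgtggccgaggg
Fnip1: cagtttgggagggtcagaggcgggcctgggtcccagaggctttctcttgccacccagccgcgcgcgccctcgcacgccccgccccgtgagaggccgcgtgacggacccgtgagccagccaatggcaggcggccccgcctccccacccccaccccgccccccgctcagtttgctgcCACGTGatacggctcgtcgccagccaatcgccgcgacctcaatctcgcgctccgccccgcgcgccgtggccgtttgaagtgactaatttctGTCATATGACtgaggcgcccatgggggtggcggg
Fnip2: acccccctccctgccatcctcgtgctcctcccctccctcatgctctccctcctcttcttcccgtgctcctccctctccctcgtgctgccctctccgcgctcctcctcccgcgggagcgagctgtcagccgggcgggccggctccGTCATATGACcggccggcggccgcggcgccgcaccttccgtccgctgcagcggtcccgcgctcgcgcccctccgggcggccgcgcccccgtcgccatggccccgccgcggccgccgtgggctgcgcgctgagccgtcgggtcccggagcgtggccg
Gpnmb: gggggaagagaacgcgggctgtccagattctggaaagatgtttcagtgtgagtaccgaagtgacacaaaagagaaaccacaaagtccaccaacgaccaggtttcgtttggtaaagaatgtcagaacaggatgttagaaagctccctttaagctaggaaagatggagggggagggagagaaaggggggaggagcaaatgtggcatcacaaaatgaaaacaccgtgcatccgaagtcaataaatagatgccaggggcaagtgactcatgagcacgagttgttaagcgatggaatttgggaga
Only 1 of the 13 windows held CACGTG, that of Fnip1 at position -75 from the start site, and 7.15% of 32851 RefSeq promoters hold it. The longer CLEAR-type palindrome TCACGTGA, which contains CACGTG, was in none of the 13 windows, nor was the M-box-type octamer TCATGTGA read on either strand; 0.974% and 0.986% of all promoters hold them. Fnip1 at position +16 and Fnip2 at position -106 both held GTCATATGAC, which 14 of the 32851 promoters hold (0.0426%). That palindrome was picked as the longest one that these 2 windows share, so its presence in both was fixed by the choice. The overlap is a description of these 2 windows and no test.

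In KO cells Tfeb was higher and Tfe3 lower than in WT cells in all 3 conditions, while the other genes differed in some conditions and not in others. Over the 3 conditions, 4 of the 7 tested genes rose in KO (Tfeb, Mitf, Flcn and Fnip1), 1 fell (Tfe3) and 2 were not called (Fnip2 and Gpnmb), against a background of 27.1% of all tested genes called at an edgeR adjusted p below 0.05 (13.3% higher and 13.8% lower). In pluripotent culture 4 rose and 1 fell, where 51.8% of all genes were called (25.5% higher and 26.3% lower). After LIF withdrawal 2 rose and 1 fell, where 35.8% of all genes were called (18.4% higher and 17.5% lower). Among the embryoid bodies 5 rose and 1 fell, where 37.2% of all genes were called (19.4% higher and 17.8% lower). The median log2 fold change of the 7 genes over the 3 conditions was 0.51, against -0.02 for all tested genes. Calls were common among all genes, so a call of 1 gene says little about these genes as a group. With DESeq2 in place of edgeR, 5 of the 7 were higher and 1 lower over the 3 conditions. Without the WT pluripotent library the number of all genes called over the 3 conditions was 5896, against 3787 with it. With upper-quartile scaling 38.6% of those calls were higher in KO, against 49.1% with TMM scaling. In bulk RNA of this kind, fewer cells of a type and less RNA per cell cannot be told apart, which holds for every level given here.

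**Figure D1:**
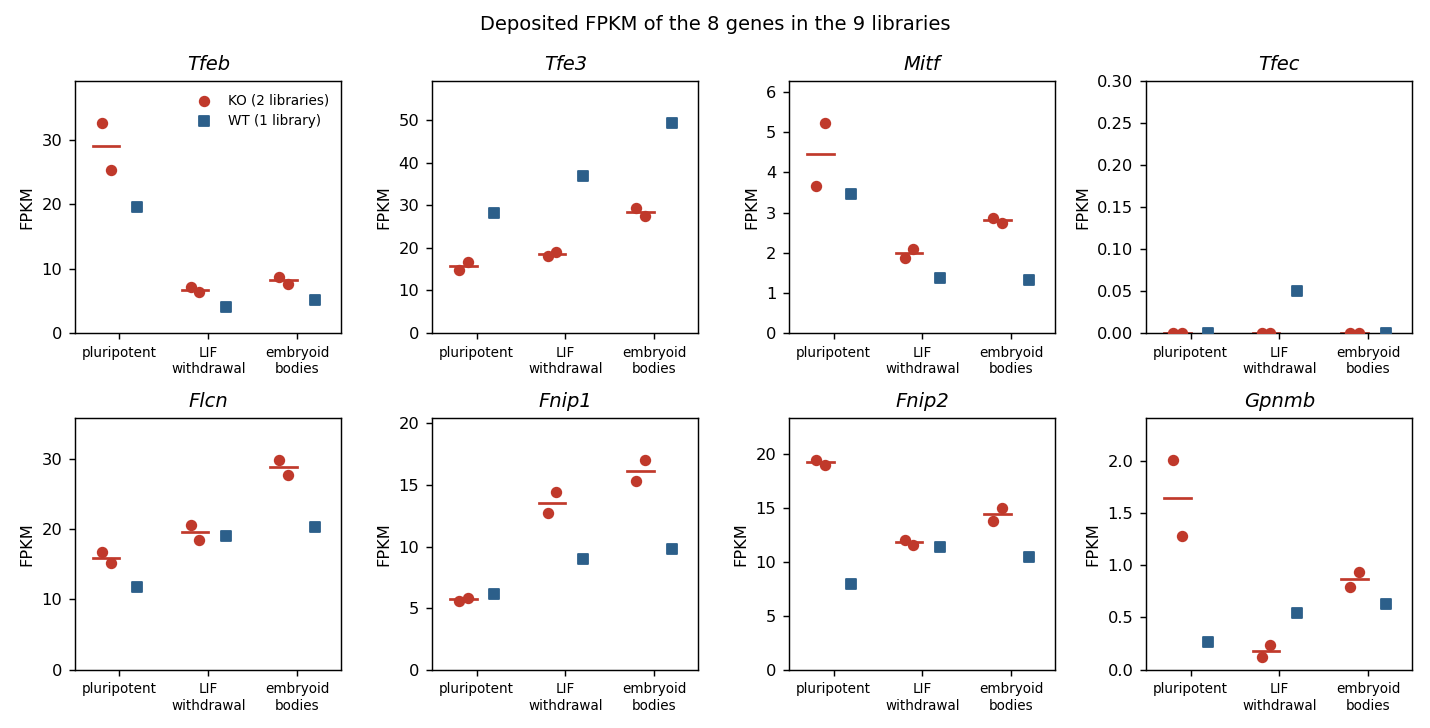
Deposited FPKM (y axis, starting at 0, a scale of its own in each panel) of the 8 genes in each library, by condition (x axis), with KO libraries as red circles (bar: mean of 2) left of the WT library as a blue square. The KO circles lie above the WT square for Tfeb and below it for Tfe3 in all 3 conditions, whereas Fnip2 and Gpnmb stand highest in KO pluripotent cells.

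Tfeb, the family member best known as a driver of lysosomal genes, was listed at 32.7 and 25.4 FPKM in KO pluripotent cells against 19.6 FPKM in WT. After LIF withdrawal it stood at 7.16 and 6.36 FPKM in KO against 4.02 FPKM in WT, and in embryoid bodies at 8.69 and 7.66 FPKM in KO against 5.19 FPKM in WT. Both KO libraries were above the WT library in every condition. With 2 libraries against 1, such an order says little by itself. How many of all genes have such an order was not counted, here or for the genes below. The difference was of like size in the 3 conditions, with KO 1.62-fold WT in pluripotent culture (log2 fold change 0.70 ± 0.16 SE, edgeR adjusted p = 0.0037), 1.75-fold after LIF withdrawal (0.81 ± 0.22, edgeR adjusted p = 0.0139) and 1.57-fold in embryoid bodies (0.65 ± 0.21, edgeR adjusted p = 0.0299). Across all conditions Tfeb rose 1.64-fold in KO (log2 fold change 0.72 ± 0.13 SE, edgeR adjusted p = 0.00388). The call after LIF withdrawal was lost without KO library 1 of that condition (log2 fold change 0.70, edgeR adjusted p = 0.0665). In embryoid bodies the call was lost without KO library 1 of that condition (0.56, edgeR adjusted p = 0.121) and with DESeq2 (0.64, DESeq2 adjusted p = 0.0876).

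Tfe3, the family member that folliculin keeps out of the nucleus of stem cells that leave pluripotency, ran the other way. It was listed at 14.9 and 16.7 FPKM in KO pluripotent cells against 28.3 FPKM in WT, at 18.2 and 19.0 FPKM in KO against 36.8 FPKM in WT after LIF withdrawal, and at 29.3 and 27.4 FPKM in KO against 49.3 FPKM in WT embryoid bodies. Every KO library lay below the WT library of its condition, and the KO pair of each condition lay close together. Tfe3 RNA in KO was 0.595-fold that of WT in pluripotent culture (log2 fold change -0.75 ± 0.10 SE, edgeR adjusted p = 4.92e-05), 0.528-fold after LIF withdrawal (-0.92 ± 0.09, edgeR adjusted p = 1.15e-05) and 0.580-fold in embryoid bodies (-0.79 ± 0.09, edgeR adjusted p = 3.28e-05). Taken over the 3 conditions it was 0.567-fold (log2 fold change -0.82 ± 0.07 SE, edgeR adjusted p = 0.000216). These 4 calls held in every alternative that was run.

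Mitf, the master regulator of pigment cells and the least abundant of the 3 expressed family members, was listed at 3.67 and 5.23 FPKM in KO pluripotent cells against 3.46 FPKM in WT. After LIF withdrawal it stood at 1.87 and 2.10 FPKM in KO against 1.36 FPKM in WT, and in embryoid bodies at 2.86 and 2.75 FPKM in KO against 1.31 FPKM in WT. The KO libraries lay above WT in every condition, although KO library 1 in pluripotent culture was close to the WT level. Mitf rose 2.06-fold in KO embryoid bodies (log2 fold change 1.04 ± 0.24 SE, edgeR adjusted p = 0.00514). The differences of 0.43 ± 0.20 in pluripotent culture (edgeR adjusted p = 0.0874) and 0.63 ± 0.25 after LIF withdrawal (edgeR adjusted p = 0.0636) did not pass. Across all conditions Mitf rose by 0.69 ± 0.17 on the log2 scale (edgeR adjusted p = 0.0171). That call was lost without the WT LIF withdrawal library (0.71) or the WT embryoid body library (0.53). Without KO library 1 in pluripotent culture the difference there was called (0.66), whereas without KO library 2 it was 0.18. Without either KO pluripotent library the difference after LIF withdrawal was called (0.63 each).

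Tfec, which in mice is found mainly in macrophages, was at 0 in 8 libraries and had 1 count (0.05 FPKM) in the WT LIF withdrawal library. At these depths a count of 0 allows up to 0.276 to 0.296 CPM, counting error only, so Tfec could not be compared.

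The make-up of the family differed with genotype. Tfeb made up 63.8% and 53.7% of the summed FPKM of the 4 family genes in KO pluripotent cells against 38.1% in WT, 26.3% and 23.2% in KO against 9.52% in WT after LIF withdrawal, and 21.3% and 20.3% in KO against 9.30% in WT embryoid bodies. Tfe3 was thus below Tfeb in both KO pluripotent libraries, with a Tfe3 to Tfeb FPKM ratio of 0.455 and 0.657, but above it in the WT pluripotent library, with a ratio of 1.44. After LIF withdrawal the ratio was 2.54 and 2.99 in KO against 9.15 in WT, and in embryoid bodies it was 3.37 and 3.57 in KO against 9.50 in WT. The summed level was 51.2 and 47.3 FPKM in KO against 51.3 FPKM in WT pluripotent cells, so in that condition the higher Tfeb and lower Tfe3 left a like total. After LIF withdrawal the sum was 27.2 and 27.5 FPKM in KO against 42.2 FPKM in WT, and in embryoid bodies 40.9 and 37.8 FPKM in KO against 55.8 FPKM in WT, lower in both KO libraries each time. These shares are a description and carry no test of their own.

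**Figure D2:**
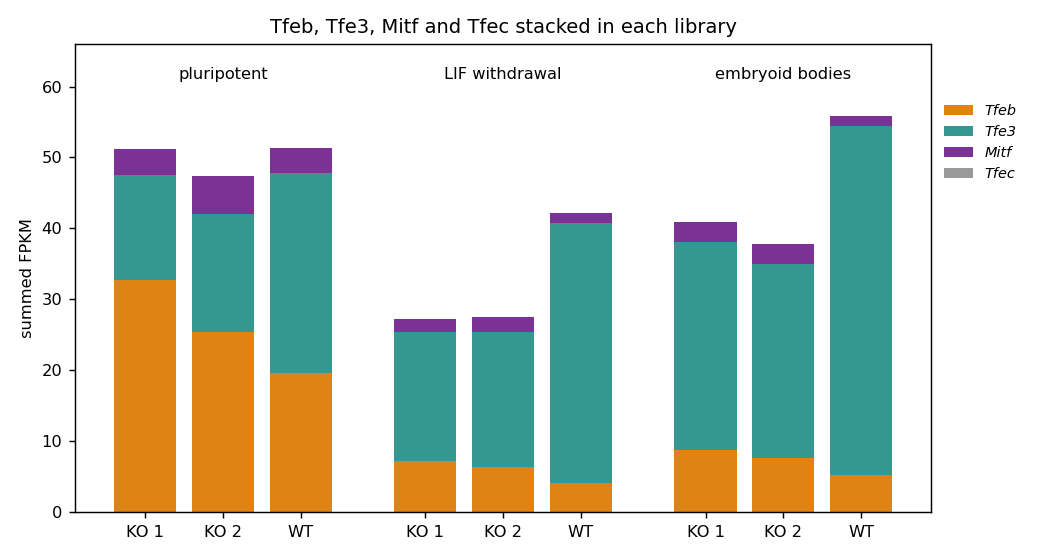
Summed FPKM (y axis) of Tfeb (orange), Tfe3 (green), Mitf (purple) and Tfec (grey) in each of the 9 libraries (x axis), with the KO libraries left of the WT library within each condition. Orange is the tallest part of the bar in both KO pluripotent libraries (63.8% and 53.7%), while green is the tallest in the other 7 libraries.

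Folliculin RNA was modestly higher in KO cells in 2 of the 3 conditions. Flcn was listed at 16.7 and 15.2 FPKM in KO pluripotent cells against 11.9 FPKM in WT, and at 29.9 and 27.8 FPKM in KO against 20.3 FPKM in WT embryoid bodies. After LIF withdrawal the KO libraries, at 20.6 and 18.5 FPKM, lay on either side of the WT library at 19.1 FPKM. Flcn rose 1.41-fold in KO pluripotent cells (log2 fold change 0.50 ± 0.13 SE, edgeR adjusted p = 0.00637) and 1.43-fold in KO embryoid bodies (0.52 ± 0.12, edgeR adjusted p = 0.00455), and did not pass after LIF withdrawal (0.10 ± 0.12, edgeR adjusted p = 0.576). The call over the 3 conditions, at 0.36 ± 0.11 (edgeR adjusted p = 0.0399), was a narrow one. It was lost without either KO pluripotent library (0.33 without library 1 and 0.38 without library 2), without KO library 1 after LIF withdrawal (0.36), without either KO embryoid body library (0.34 and 0.37) and without the WT embryoid body library (0.29) or both pluripotent groups (0.31).

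The partners FNIP1 and FNIP2, which can stand in for each other in the folliculin complex, differed between genotypes in different conditions. Fnip1 was listed at 5.55 and 5.86 FPKM in KO pluripotent cells against 6.18 FPKM in WT, at 12.8 and 14.4 FPKM in KO against 9.02 FPKM in WT after LIF withdrawal, and at 15.3 and 17.1 FPKM in KO against 9.80 FPKM in WT embryoid bodies. The KO libraries were thus slightly below WT in FPKM in pluripotent culture and clearly above it in both differentiated conditions. The log2 fold change was 0.01 ± 0.12 in pluripotent culture (edgeR adjusted p = 0.969), 0.65 ± 0.11 after LIF withdrawal, where Fnip1 rose 1.57-fold (edgeR adjusted p = 0.000532), and 0.72 ± 0.11 in embryoid bodies, where it rose 1.65-fold (edgeR adjusted p = 0.000242). Over the 3 conditions Fnip1 rose by 0.46 ± 0.14 on the log2 scale (edgeR adjusted p = 0.0384), and by 0.68 without the WT pluripotent library. That call was lost without the WT library (0.36), KO library 1 (0.46) or KO library 2 (0.42) of the LIF withdrawal condition, or without the WT library (0.33), KO library 1 (0.45) or KO library 2 (0.41) of the embryoid bodies.

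Fnip2 was listed at 19.5 and 19.0 FPKM in KO pluripotent cells against 7.91 FPKM in WT, at 12.0 and 11.6 FPKM in KO against 11.4 FPKM in WT after LIF withdrawal, and at 13.8 and 15.0 FPKM in KO against 10.5 FPKM in WT embryoid bodies. The pluripotent KO libraries held the 2 highest values of the 9 and the pluripotent WT library the lowest, while after LIF withdrawal the genotypes were close together. Fnip2 rose 2.65-fold in KO pluripotent cells (log2 fold change 1.40 ± 0.10 SE, edgeR adjusted p = 5.83e-07) and 1.37-fold in KO embryoid bodies (0.46 ± 0.10, edgeR adjusted p = 0.00326), and did not pass after LIF withdrawal (0.11 ± 0.10, edgeR adjusted p = 0.408). Over the 3 conditions the difference of 0.62 ± 0.20 did not pass (edgeR adjusted p = 0.0522). It was called with DESeq2 (0.62, DESeq2 adjusted p = 0.0155) and with no filter on low values (0.65, edgeR adjusted p = 0.0387). It was also called without both pluripotent groups (0.29, edgeR adjusted p = 0.0469), without the WT pluripotent library, at 0.28, and without the WT LIF withdrawal library, at 0.91.

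The balance of the partners therefore differed with genotype and condition. The Fnip2 to Fnip1 FPKM ratio was 3.51 and 3.24 in KO pluripotent cells against 1.28 in WT. After LIF withdrawal it was 0.944 and 0.805 in KO against 1.26 in WT, and in embryoid bodies it was 0.902 and 0.879 in KO against 1.07 in WT. Fnip2 was the higher of the pair in all 3 WT libraries and in KO pluripotent cells, and Fnip1 was the higher in the 4 differentiated KO libraries. The summed FPKM of Fnip1 and Fnip2 was 25.0 and 24.8 in KO against 14.1 in WT pluripotent cells, 24.8 and 26.0 in KO against 20.4 in WT after LIF withdrawal, and 29.1 and 32.0 in KO against 20.3 in WT embryoid bodies.

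Gpnmb was a low-abundance transcript whose largest difference lay in pluripotent culture. It was listed at 2.01 and 1.28 FPKM in KO pluripotent cells against 0.27 FPKM in WT, at 0.12 and 0.24 FPKM in KO against 0.54 FPKM in WT after LIF withdrawal, and at 0.79 and 0.94 FPKM in KO against 0.63 FPKM in WT embryoid bodies. Both KO libraries were above WT in pluripotent culture and in embryoid bodies and below it after LIF withdrawal. In counts this was 130 over the 2 KO libraries against 11 in WT pluripotent cells, a depth-scaled ratio of 6.11 (95% exact binomial counting interval 3.31 to 12.6). The same ratio was 0.335 (0.162 to 0.675) after LIF withdrawal, from 15 counts in KO and 22 in WT, and 1.37 (0.853 to 2.25) in embryoid bodies, from 69 counts in KO and 25 in WT. Gpnmb rose in KO pluripotent cells by 2.72 ± 0.48 on the log2 scale (edgeR adjusted p = 0.000506). The log2 fold change was -1.50 ± 0.55 after LIF withdrawal (edgeR adjusted p = 0.0516), which was called without either KO pluripotent library (-1.50 each) and without KO library 2 of that condition (-2.05), and 0.44 ± 0.43 in embryoid bodies (edgeR adjusted p = 0.455). The value over the 3 conditions, 0.51 ± 0.65, did not pass (edgeR adjusted p = 0.602) and turned to -0.33 without the WT pluripotent library. The mean level of Gpnmb was 0.758 FPKM, and it would still have passed the filter, at 0.504 FPKM, without the KO pluripotent libraries.

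**Figure D3:**
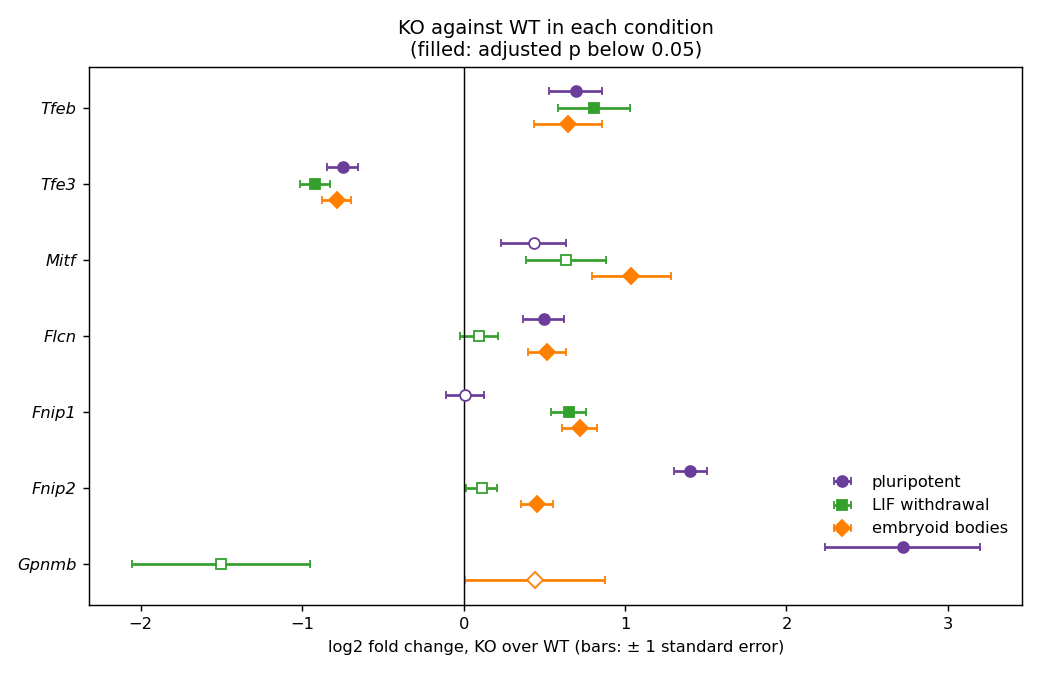
The log2 fold change of KO over WT (x axis, bars ± 1 SE from edgeR, 2 KO libraries against 1 WT library) for the 7 tested genes (y axis) with purple for pluripotent culture, green for LIF withdrawal and orange for embryoid bodies, with filled marks for an adjusted p below 0.05. The Tfeb marks cluster between 0.65 and 0.81 and the Tfe3 marks between -0.92 and -0.75, while the marks of Fnip2 and Gpnmb are spread widely.

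The question of how these genes behave as cells leave pluripotency was addressed within each genotype. Tfeb and Mitf fell and Tfe3, Flcn and Fnip1 rose in both genotypes and both differentiated conditions, while Fnip2 and Gpnmb differed in direction between the genotypes. In KO cells after LIF withdrawal 3 of the 7 tested genes were higher and 4 lower, where 59.2% of all genes were called (30.2% higher and 29% lower). In KO embryoid bodies 3 were likewise higher and 4 lower, where 61% of all genes were called (31% higher and 30% lower). In WT cells 4 were higher and 2 lower after LIF withdrawal, where 20.5% of all genes were called (11.6% higher and 8.9% lower), and 4 were higher and 2 lower in embryoid bodies, where 38.6% were called (19.7% higher and 18.9% lower). Gpnmb was not called in either WT comparison. Both responses of a genotype are set against the same pluripotent libraries, and the WT responses compare 1 library with 1.

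The fall of Tfeb was the largest response of the transcription factors. After LIF withdrawal it fell by 2.14 ± 0.15 on the log2 scale in KO (edgeR adjusted p = 2.07e-07) and fell by 2.25 ± 0.23 in WT (edgeR adjusted p = 3.51e-05). In embryoid bodies it fell by 1.94 ± 0.14 in KO (edgeR adjusted p = 3.97e-07) and fell by 1.89 ± 0.22 in WT (edgeR adjusted p = 4.66e-05). In WT cells after LIF withdrawal, 2.34% of all tested genes changed by more than Tfeb in either direction. Mitf fell by 1.12 in KO and 1.32 in WT after LIF withdrawal and by 0.75 in KO and 1.36 in WT in embryoid bodies; without KO pluripotent library 2 the fall in KO embryoid bodies was 0.50. Tfe3 rose in embryoid bodies by 0.75 ± 0.08 in KO (edgeR adjusted p = 7.92e-06) and 0.79 ± 0.11 in WT (edgeR adjusted p = 0.00014).

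After LIF withdrawal the rise of Tfe3 was small, at 0.22 ± 0.08 in KO (edgeR adjusted p = 0.0413) and 0.39 ± 0.11 in WT (edgeR adjusted p = 0.0233). The KO call was lost without KO pluripotent library 1 (0.13), without KO library 1 (0.20) or 2 (0.22) after LIF withdrawal, without the WT embryoid body library (0.20), without either KO embryoid body library (0.22 each), and with DESeq2 (0.21). With DESeq2 the WT call was lost as well (0.39, DESeq2 adjusted p = 0.177). Limma did not call it either, on log2(FPKM + 1) (0.37) or on log2(FPKM + 0.1) (0.38). With no filter on low values the KO call was lost too (0.21).

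Of the folliculin complex genes, Flcn rose by 0.30 in KO and 0.70 in WT after LIF withdrawal and by 0.77 in KO and 0.75 in WT in embryoid bodies. The KO rise after LIF withdrawal was lost without KO pluripotent library 2 (0.20), without KO library 1 after LIF withdrawal (0.18) and with DESeq2 (0.30, DESeq2 adjusted p = 0.0911). Fnip1 rose by 1.21 ± 0.09 in KO and 0.57 ± 0.13 in WT after LIF withdrawal and by 1.40 ± 0.09 in KO and 0.68 ± 0.13 in WT in embryoid bodies. Limma did not call the WT rise of Fnip1 after LIF withdrawal, at 0.48 on log2(FPKM + 1) (limma adjusted p = 0.0588) and 0.54 on log2(FPKM + 0.1) (limma adjusted p = 0.058). Fnip2 fell by 0.74 ± 0.08 in KO (edgeR adjusted p = 6.52e-06) but rose by 0.55 ± 0.12 in WT (edgeR adjusted p = 0.00537) after LIF withdrawal. In embryoid bodies Fnip2 fell by 0.53 ± 0.08 in KO (edgeR adjusted p = 8.47e-05) and rose by 0.42 ± 0.12 in WT (edgeR adjusted p = 0.0131), a WT call that DESeq2 did not make (0.42, DESeq2 adjusted p = 0.0683).

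Gpnmb fell by 3.21 ± 0.40 in KO after LIF withdrawal (edgeR adjusted p = 2.47e-05) and by 1.05 ± 0.31 in KO embryoid bodies (edgeR adjusted p = 0.0107). Without KO pluripotent library 1 the fall in embryoid bodies was 0.68, without KO embryoid body library 1 it was 0.93, and neither was called. DESeq2 did not call that fall (-1.06, DESeq2 adjusted p = 0.13), nor did limma on log2(FPKM + 0.1) (-0.83, limma adjusted p = 0.096). In WT its differences of 1.02 ± 0.61 (edgeR adjusted p = 0.274) and 1.23 ± 0.60 (edgeR adjusted p = 0.126) did not pass, on 11 to 25 counts per library.

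**Figure D4:**
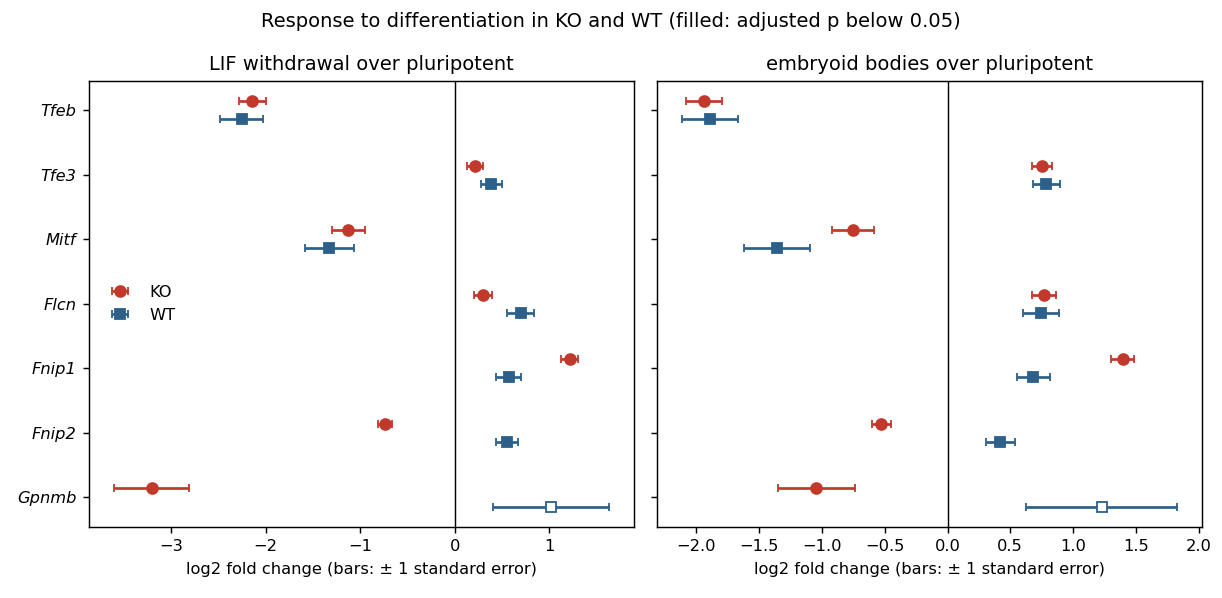
The log2 fold change from pluripotent culture (x axis, bars ± 1 SE from edgeR) to LIF withdrawal (left panel) and to embryoid bodies (right panel) for the 7 tested genes (y axis), in KO cells (red circles) and WT cells (blue squares), with filled marks for an adjusted p below 0.05. Circle and square lie on opposite sides of 0 for Fnip2 and Gpnmb and on the same side for the other 5 genes.

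Whether the KO and WT responses themselves differed was tested directly. The responses of Fnip1, Fnip2 and Gpnmb differed between genotypes in both differentiated conditions, and those of Tfeb, Tfe3, Mitf and Flcn did not pass the test in either. In each of the 2 tests 1 gene had a more positive response in KO (Fnip1) and 2 a more negative one (Fnip2 and Gpnmb), against a background of 32.4% of all genes called for LIF withdrawal (17.5% more positive and 14.9% more negative) and 41.9% for embryoid bodies (22.4% more positive and 19.5% more negative). These tests share the pluripotent libraries, and so does the comparison of KO with WT in pluripotent culture. For LIF withdrawal the KO response minus the WT response was 0.64 ± 0.16 for Fnip1 (edgeR adjusted p = 0.00879), -1.29 ± 0.14 for Fnip2 (edgeR adjusted p = 5.2e-05) and -4.22 ± 0.74 for Gpnmb (edgeR adjusted p = 0.00122). For embryoid bodies it was 0.71 ± 0.16 for Fnip1 (edgeR adjusted p = 0.00364), -0.95 ± 0.14 for Fnip2 (edgeR adjusted p = 0.000266) and -2.27 ± 0.67 for Gpnmb (edgeR adjusted p = 0.0173). DESeq2 did not call Fnip1 for LIF withdrawal (0.64, DESeq2 adjusted p = 0.0537) or Gpnmb for embryoid bodies (-2.30, DESeq2 adjusted p = 0.114). Limma did not call Gpnmb for embryoid bodies on log2(FPKM + 1) (-0.85, limma adjusted p = 0.057) or on log2(FPKM + 0.1) (-1.81, limma adjusted p = 0.068).

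For the transcription factors the differences of response were small beside their errors. They were 0.11 ± 0.28 for Tfeb, -0.17 ± 0.14 for Tfe3 and 0.20 ± 0.32 for Mitf after LIF withdrawal, and -0.05 ± 0.27, -0.04 ± 0.13 and 0.61 ± 0.32 for the same genes in embryoid bodies. The embryoid body value of Mitf was called without KO pluripotent library 2 (0.86). Flcn differed by -0.40 ± 0.17 after LIF withdrawal (edgeR adjusted p = 0.0995), which was called without KO library 1 of that condition (-0.51), and by 0.02 ± 0.17 in embryoid bodies. A difference that missed the threshold here does not show that the responses were alike.

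By level, the order of the group means was led by Tfeb in KO pluripotent cells, at 29.0 ± 5.13 FPKM (SD, n = 2), followed by Fnip2 at 19.2 ± 0.35, Flcn at 16.0 ± 1.04 and Tfe3 at 15.8 ± 1.29, of which the last pair overlapped. In KO cells after LIF withdrawal Flcn at 19.5 ± 1.55 FPKM and Tfe3 at 18.6 ± 0.59 FPKM came first and overlapped, as did Flcn at 28.8 ± 1.49 FPKM and Tfe3 at 28.3 ± 1.38 FPKM in KO embryoid bodies. Tfe3 was the highest of the 8 genes in each of the 3 WT libraries. Fnip1 was at 5.71 ± 0.22 FPKM in KO pluripotent cells, 13.6 ± 1.15 FPKM in KO after LIF withdrawal and 16.2 ± 1.24 FPKM in KO embryoid bodies. Mitf, Gpnmb and Tfec came last in that order in all 6 groups.

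Across the 9 libraries, Tfeb and Mitf had the most similar course of the members with a mean of at least 1 FPKM (Pearson r of log2(FPKM + 1) 0.90, n = 9 libraries), followed by Flcn and Fnip1 (r = 0.83), while Tfeb and Fnip1 were the most opposed (r = -0.72). The points share libraries and the large change between conditions, so these values describe the course of the genes and are given with no p. Among 12643 genes with a symbol and a mean of at least 1 FPKM, the 3 most like Tfeb were Mrpl57 (r = 0.99), which encodes a mitochondrial ribosomal protein, Aars2 (r = 0.99), which encodes the mitochondrial alanyl-tRNA synthetase, and the inositol phosphate kinase gene Itpk1 (r = 0.98). Itpk1 stood at 144.9 and 127.0 FPKM in KO against 70.1 FPKM in WT pluripotent cells. Those most like Tfe3 were Marveld3, a tight junction gene, Moxd1, and Cop1, a ubiquitin ligase gene (r = 0.99 each). Those most like Mitf were the amino acid transporter gene Slc6a7, Bloc1s5, a gene for lysosome-related organelles, and Hagh (r = 0.98, 0.98 and 0.97 in that order). Flcn went most with Ndel1 (r = 0.98), Cited2 (r = 0.97) and Cd24a (r = 0.97), and Fnip1 with Klhl24 (r = 0.99), Myrf (r = 0.98) and Ccdc92b (r = 0.98). Fnip2 went most with Fam107b (r = 0.99), Cd63 (r = 0.98) and Eml2 (r = 0.97). Cd63, a lysosomal membrane tetraspanin in the CLEAR list, stood at 270.7 and 248.5 FPKM in KO against 40.2 FPKM in WT pluripotent cells.

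Genes of the pathway around the family were read from lists. Of the CLEAR network, the known targets of TFEB and TFE3, 33 of 34 genes were tested, and 21 rose and 0 fell in KO over the 3 conditions (edgeR, at an unadjusted p under 0.05 25 rose and 0 fell; DESeq2, 24 rose and 0 fell), where 13.3% of all genes rose and 13.8% fell. Their median log2 fold change was 0.60, against -0.02 for all tested genes. Within conditions 26 rose and 2 fell in pluripotent culture (median 0.80), 24 rose and 2 fell after LIF withdrawal (median 0.44), and 25 rose and 1 fell in embryoid bodies (median 0.58). Of all genes, 25.5%, 18.4% and 19.4% rose and 26.3%, 17.5% and 17.8% fell in the 3 conditions in that order. With DESeq2, 15 rose and 1 fell after LIF withdrawal. The largest rises over the 3 conditions were in Hexa (log2 fold change 1.80 ± 0.43 SE, edgeR adjusted p = 0.0159) and Ctsa (1.61 ± 0.19, edgeR adjusted p = 0.00066), which encode lysosomal hydrolases, in the lysosomal peptidase gene Tpp1 (1.08 ± 0.14, edgeR adjusted p = 0.000981) and in the v-ATPase subunit gene Atp6v0d1 (0.98 ± 0.10, edgeR adjusted p = 0.000354). Hexa stood at 129.0 and 117.3 FPKM in KO against 10.3 FPKM in WT pluripotent cells, and Ctsa at 127.2 and 127.4 FPKM in KO against 27.3 FPKM in WT. RefSeq promoters of 27 CLEAR genes were available, and those of 13 held CACGTG and of 8 held TCACGTGA. Of all 32851 promoters, 7.15% and 0.974% hold these motifs. The CLEAR genes are named for this type of promoter element, so the counts are no test of the list.

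Of the 9 Rag GTPase and Ragulator genes, 1 rose and 2 fell in KO over the 3 conditions (median 0.13), against 13.3% and 13.8% of all tested genes, so the 3 called of 9 stood near the background of 27.1%. In pluripotent culture 5 rose and 1 fell (median 0.53), where 25.5% of all genes rose and 26.3% fell. The one that rose over the 3 conditions was Rragc (log2 fold change 0.90 ± 0.14 SE, edgeR adjusted p = 0.00218), which encodes RagC, the GTPase that folliculin acts on; it stood at 35.1 and 29.9 FPKM in KO against 13.8 FPKM in WT pluripotent cells. The 2 that fell were Hbxip itself and Rragb (-0.54 ± 0.17, edgeR adjusted p = 0.0444), which encodes RagB and stood at 5.63 and 6.04 FPKM in KO against 14.4 FPKM in WT pluripotent cells. Rragd, which encodes RagD and is itself a known target of TFEB and TFE3, was higher in KO pluripotent cells (0.70 ± 0.11, edgeR adjusted p = 0.000231) and lower in KO after LIF withdrawal (-0.54 ± 0.10, edgeR adjusted p = 0.00109) and in KO embryoid bodies (-0.56 ± 0.10, edgeR adjusted p = 0.000641).

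Among 20 genes that regulate where TFEB and TFE3 proteins reside, 8 rose and 1 fell in KO over the 3 conditions (median 0.22), where 13.3% of all tested genes rose and 13.8% fell (median -0.02). They included Mcoln1 (0.69 ± 0.14, edgeR adjusted p = 0.00668), the lysosomal calcium channel gene that is also in the CLEAR list, Mlst8 (0.47 ± 0.15, edgeR adjusted p = 0.0407), which encodes an mTORC1 subunit, Tsc2 (0.45 ± 0.07, edgeR adjusted p = 0.00268), which encodes an inhibitor of mTORC1, and Ppp3ca (0.42 ± 0.10, edgeR adjusted p = 0.0146), which encodes a catalytic subunit of calcineurin, the phosphatase that acts on TFEB. Among 14 genes of AMPK subunits and partners of the folliculin complex, 4 rose and 2 fell (median -0.04), against the same background of 13.3% and 13.8%. Gabarapl2 (0.91 ± 0.11, edgeR adjusted p = 0.000666), Gabarap (0.83 ± 0.19, edgeR adjusted p = 0.0117) and Smcr8 (0.62 ± 0.07, edgeR adjusted p = 0.000618), whose protein is related to folliculin, rose. Prkag2, which encodes an AMPK gamma subunit, fell (-0.93 ± 0.27, edgeR adjusted p = 0.0327) and stood at 1.60 and 1.83 FPKM in KO against 7.42 FPKM in WT pluripotent cells.

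**Figure D5:**
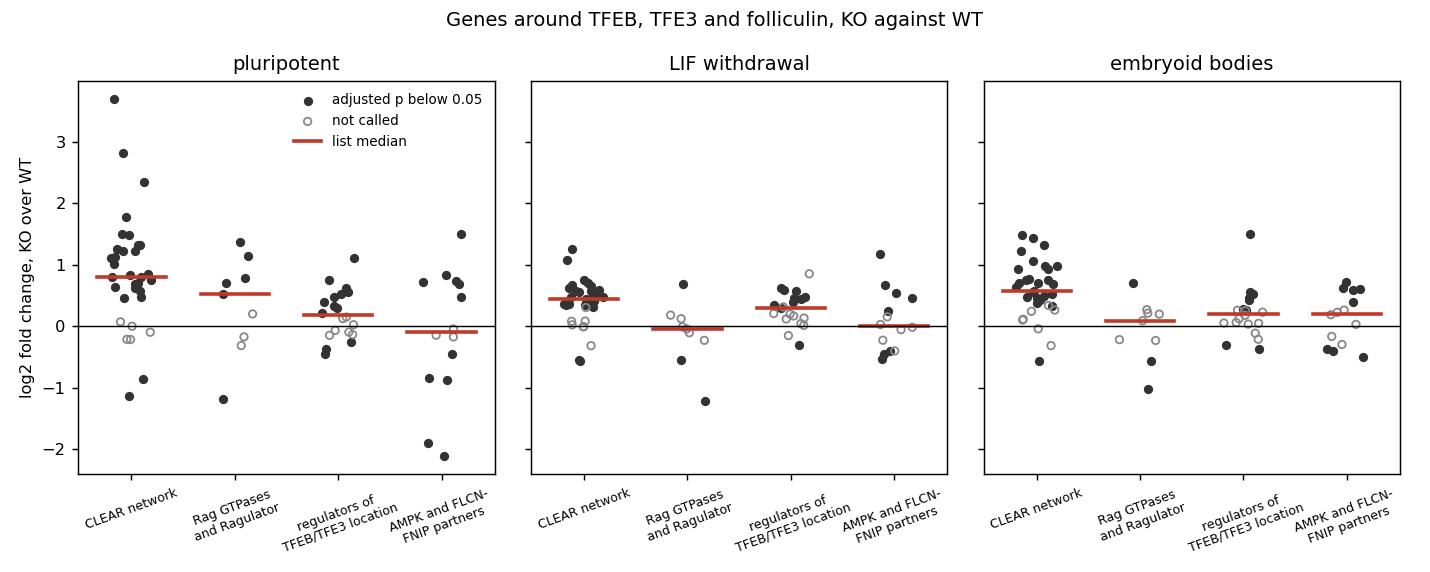
The log2 fold change of KO over WT (y axis) of each tested gene of 4 lists (x axis) in 1 panel for each condition, with filled dots for an edgeR adjusted p below 0.05, open dots for genes not called and a red line at the list median. The CLEAR median lies at 0.80, 0.44 and 0.58 in the 3 panels, and the medians of the other lists lie between -0.10 and 0.53.

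Markers of other cells that use these factors were read from lists too. Of 10 pigment cell markers, which are known MITF targets or regulators, 5 were tested, and 2 rose in KO pluripotent cells, Pmel (1.42 ± 0.17, edgeR adjusted p = 2.75e-05) and Trpm1 (1.76 ± 0.26, edgeR adjusted p = 0.000154). Pmel stood at 16.2 and 16.0 FPKM in KO against 6.55 FPKM in WT pluripotent cells. After LIF withdrawal both genes were below WT, Pmel at 2.18 and 2.81 against 3.45 FPKM and Trpm1 at 0.29 and 0.36 against 0.62 FPKM. In embryoid bodies Pmel was above WT, at 7.67 and 6.77 against 4.89 FPKM. Trpm1 was there at 1.29 and 1.07 FPKM in KO against 1.32 FPKM in WT. Of the 5 tested markers, 2 fell in KO after LIF withdrawal, and in embryoid bodies 1 rose and 2 fell. Over the 3 conditions 0 rose and 1 fell in KO, where 13.3% of all tested genes rose and 13.8% fell. Of all tested genes, 51.8% were called in pluripotent culture. The share was 35.8% for LIF withdrawal and 37.2% for embryoid bodies. The summed level of the list was 28.6 to 30.2 FPKM in KO against 15.8 FPKM in WT pluripotent cells, 7.36 to 7.94 against 13.1 FPKM after LIF withdrawal and 13.9 to 16.5 against 15.6 FPKM in embryoid bodies. Of the other markers on the list, Dct and Tyrp1 were at or below 0.10 FPKM in every library. Tyr, in contrast, lay between 2.58 and 5.14 FPKM, with 2.83 and 2.58 FPKM in KO against 3.89 FPKM in WT after LIF withdrawal. Sox10 was lower in KO in all 3 conditions, on 2 to 90 counts per library. It stood at 0.07 and 0.18 against 0.42 FPKM in pluripotent culture and at 0.07 and 0.54 against 1.62 FPKM after LIF withdrawal. In embryoid bodies it stood at 1.14 and 0.93 against 3.19 FPKM.

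Of 10 macrophage and osteoclast markers, 2 were tested and 1 rose over the 3 conditions, Cd68 (1.19 ± 0.15, edgeR adjusted p = 0.000783), whose protein sits in lysosomes. For this list and the next ones, the background over the 3 conditions was 13.3% of all tested genes higher and 13.8% lower in KO. The summed level of the list was 43.3 to 44.0 FPKM in KO against 27.2 FPKM in WT pluripotent cells. It was 33.5 to 36.2 against 20.4 FPKM after LIF withdrawal and 21.9 to 23.5 against 12.3 FPKM in embryoid bodies. Csf1r and Ptprc were at or below 0.07 FPKM in every library, whereas Acp5, also on the list, lay between 5.21 and 13.5 FPKM. The 12 extraembryonic endoderm markers summed to 1089 to 1234 FPKM in KO against 108.1 FPKM in WT pluripotent cells. The sum was 325.3 to 364.1 against 155.9 FPKM after LIF withdrawal and 449.6 to 518.7 against 315.3 FPKM in embryoid bodies. Nearly all of it was Apoe, and Afp and Ttr were at or below 0.09 FPKM. Amn stood at 22.3 and 17.5 FPKM in KO against 1.78 FPKM in WT pluripotent cells, but below WT in both differentiated conditions. In pluripotent culture 4 of the 9 tested markers rose and 3 fell in KO (median 0.84), where 25.5% of all genes rose and 26.3% fell. Of the 9 tested, 3 rose and 2 fell in KO over the 3 conditions, with Hnf4a at 2.88 ± 0.38 (edgeR adjusted p = 0.000974), Apoe at 1.63 ± 0.48 (edgeR adjusted p = 0.0358), Gata4 at 0.64 ± 0.20 (edgeR adjusted p = 0.0407) and Dab2 at -0.79 ± 0.15 (edgeR adjusted p = 0.00543). Of the 7 embryonic stem cell markers, 5 rose and 1 fell in KO after LIF withdrawal and 5 rose and 1 fell in KO embryoid bodies, where 18.4% of all genes rose and 17.5% fell after LIF withdrawal and 19.4% rose and 17.8% fell in embryoid bodies. In KO pluripotent cells 2 of the 7 rose and 4 fell, where 25.5% of all genes rose and 26.3% fell. Esrrb (1.13 ± 0.22, edgeR adjusted p = 0.00673), a gene that nuclear TFE3 is known to sustain in mouse embryonic stem cells, and Tfcp2l1 (1.47 ± 0.23, edgeR adjusted p = 0.00228) rose over the 3 conditions, and Nanog fell (-0.44 ± 0.10, edgeR adjusted p = 0.0116). Of 8 fibroblast and feeder markers, 3 were tested and 2 fell over the 3 conditions, Col1a1 (-2.47 ± 0.25, edgeR adjusted p = 0.000328) and Thy1 (-0.69 ± 0.13, edgeR adjusted p = 0.00604), and the list summed to 18.6 to 23.4 FPKM in KO against 38.8 FPKM in WT pluripotent cells. The part of these markers in the differences of Tfeb, Tfe3, Mitf and Gpnmb was not tested.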

How the data were processed

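RNA-seq was measured in 9 libraries of E14 cells, grouped by the labels' genotype and culture description. Total RNA came from an RNeasy Mini kit and was made into libraries by a standard Illumina protocol, per the labels' protocols. The submitters' processing notes name Bowtie2 and the build mm8. How genes were quantified, with which annotation and with or without strand, is not given in the sources used here, so reads of overlapping or antisense genes cannot be told apart. Per the file headers, the deposited tables give for each gene a length, an expected count (estimated, so not always whole) and FPKM (scaled by length and depth); both units were made by the authors. In each library 78.0% to 78.4% of the expected counts deposited were whole to within 0.005. A gene not listed in a library was set to 0.

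Gene IDs were matched to RefSeq names of GRCm38, used for names and promoter sequences only (20234 of 20287 by gene ID and 9 by accession). Expected counts were rounded and tested with edgeR 4.0.16 in R 4.3.3 (quasi-likelihood F test, TMM, Benjamini-Hochberg adjustment over the 13990 genes with a mean of at least 0.5 FPKM). One fit gave a mean to each of the 6 groups (3 residual degrees of freedom, all from KO pairs, biological coefficient of variation 6.52%). An additive fit of condition and genotype gave KO against WT over the 3 conditions (5 degrees of freedom, 18.1%), whose spread pools KO pairs with variation of the genotype difference between conditions, so its p-values can be too small against that variation alone. A gene was called at an adjusted p below 0.05. Standard errors were obtained by dividing the size of a log2 fold change by the root of its F value. Counting noise was exceeded within every KO pair (chi-square per degree of freedom 2.88 to 4.37). The edgeR script was tested on simulated data.

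Alternatives were DESeq2 1.42.0, limma 3.58.1 on log2(FPKM + 1) and log2(FPKM + 0.1), RLE and upper-quartile factors, no filter, a mean of at least 2 FPKM, a replicate block, each library left out, and both pluripotent groups left out. The 8 genes and the lists were chosen with earlier results of these data known. Named were the 8 genes, Hbxip, up to 4 called genes with the largest change over the 3 conditions in each list (mean of at least 1 FPKM) and the 3 genes most like each member. Rragd, Cd63, Pmel, Trpm1, Sox10, Pou5f1, Klf4, Tyr, Acp5, Amn and markers at or near 0 were added after their values were seen.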

Additional observations from a re-analysis of the deposited data

Results flagged for a closer look

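The response to differentiation differed between KO and WT cells, by the test of the difference itself in edgeR, for 3 of the 7 tested genes, each in both differentiated conditions. Fnip1 rose more in KO than in WT, by 0.64 on the log2 scale after LIF withdrawal and by 0.71 in embryoid bodies. Fnip2 went down in KO and up in WT, a difference of -1.29 after LIF withdrawal and of -0.95 in embryoid bodies. Gpnmb fell in KO and was not called in WT, a difference of -4.22 after LIF withdrawal and of -2.27 in embryoid bodies, on 11 to 25 counts in each WT library. Both conditions are set against the same pluripotent libraries, so the values of a gene in them are not independent. The reference is 1 WT library in each condition.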

How the results depend on the processing

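Of 1110 alternative values for single genes, 1016 kept their direction and their side of the threshold, 52 lost the call, 18 gained it and 24 changed sign, all 24 in differences that had not been called. Those changes of sign were as follows. For Gpnmb over the 3 conditions the value was -0.35 without both pluripotent groups. For Fnip1 in pluripotent culture it was -0.10 with limma on log2(FPKM + 1), -0.11 on log2(FPKM + 0.1), -0.10 with upper-quartile factors and -0.040 with a mean of at least 2 FPKM. For the embryoid body difference of responses those settings gave Tfeb 0.030, 0.087 and 0.012 in the first 3, and Tfe3 0.026, 0.042, 0.019 and 0.0080 in all 4. Leaving out 1 library moved Gpnmb over the 3 conditions between -0.33 and 1.44, Fnip1 in pluripotent culture between -0.0092 and 0.030 and Flcn after LIF withdrawal between -0.011 and 0.19. It moved the LIF withdrawal difference of responses between -0.078 and 0.32 for Tfeb and between -0.024 and 0.45 for Mitf. For the embryoid body difference the ranges were -0.24 to 0.16 for Tfeb, -0.12 to 0.034 for Tfe3 and -0.075 to 0.11 for Flcn. The calls of Flcn and Fnip1 over the 3 conditions were also lost with limma, upper-quartile factors and a mean of at least 2 FPKM. The cause was not tested.

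Counts of called genes moved by over 1.5 times in 8 of 160 alternatives. DESeq2 called 4792 genes in pluripotent culture (7248 with edgeR), 2840 after LIF withdrawal (5011), 2889 in embryoid bodies (5204), 1228 for the WT response to LIF withdrawal (2867), 2929 for WT embryoid bodies (5400), 2374 for the LIF withdrawal difference of responses (4528) and 3284 for the embryoid body difference (5857). Over the 3 conditions, leaving out 1 library gave 2544 to 5896 called genes. Upper-quartile factors moved the median log2 fold change of all genes by -0.11 (in pluripotent culture, to -0.12 against -0.0078 with TMM), and RLE factors moved it by at most 0.012 in size; limma on log2(FPKM + 0.1), which changes the unit as well, moved it by -0.12.

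The KO replicate numbers do not pair the libraries by the labels. The differences between KO replicates correlated at r = 0.25, 0.06 and 0.10 over 13990 genes between conditions. These values are low but all positive, so they do not settle whether libraries with the same number belong together. With the replicate block no count moved by over 1.5 times, Fnip1 was no longer called over the 3 conditions (0.45), and Mitf in pluripotent culture (0.42), Mitf after LIF withdrawal (0.63), Gpnmb after LIF withdrawal (-1.50) and the LIF withdrawal difference of Flcn (-0.40) were called. Depth limits mainly Gpnmb and Tfec, with 5 to 80 and 0 to 1 counts per library.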

Other observations

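The gene length in the deposited tables was not the same in every library for some of these genes. It ran from 4581 to 4863 bases for Mitf, from 3030 to 3114 bases for Tfe3 and from 3243 to 3410 bases for Flcn, while Fnip1 (6281 bases), Fnip2 (7095 bases) and Gpnmb (3798 bases) had 1 length throughout. FPKM values of the genes with differing lengths therefore carry this length, whereas the edgeR tests used counts.

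The responses of the CLEAR genes to differentiation were counted in each genotype. After LIF withdrawal 4 of the 33 tested genes rose and 16 fell in KO cells, where 30.2% of all genes rose and 29% fell, and 11 rose and 2 fell in WT cells, where 11.6% of all genes rose and 8.9% fell. In embryoid bodies 15 rose and 12 fell in KO cells, where 31% of all genes rose and 30% fell, and 16 rose and 3 fell in WT cells, where 19.7% rose and 18.9% fell. By the test of the difference between genotypes, 2 had a more positive and 18 a more negative response in KO for LIF withdrawal, and 5 and 16 for embryoid bodies, against 17.5% and 14.9% of all genes for LIF withdrawal and 22.4% and 19.5% for embryoid bodies. These comparisons share the pluripotent libraries.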
